A study of Sus scrofa with 24 samples.

Results

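The comparison described here sets Pietrain fetuses against German Landrace fetuses at 91 days post conception (dpc), late in pig gestation. Its members are the 6 arrays whose titles give the breed and 91 dpc, 3 RNA pools of Pietrain (Pi) and 3 of German Landrace (DL), out of 24 arrays in the series. The pools are named a, b and c in both breeds, and all hold RNA of the longissimus dorsi, the long back muscle that becomes the pork loin. The other 18 arrays hold the same 2 breeds at 35 dpc, at 63 dpc and as adults, with 3 pools a group. No group was treated, and no genotype beyond the breed is given. The sources used here do not give the number of fetuses in a pool, their sex or their litters, so p-values refer only to the spread between pools. A free-text field calls these fetal pools peripubertal, against the stage given in their titles and characteristics, which was used. The RNA was hybridised to the Affymetrix GeneChip Porcine Genome Array, in which a probe set is a group of short probes for a single transcript.

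Pig muscle forms in successive waves of fibres. Primary fibres arise in early gestation and mostly become slow, oxidative fibres, and the more numerous secondary fibres form around them and mostly become fast fibres. By late gestation the number of fibres is largely set, and the fibres then exchange embryonic and neonatal proteins for adult isoforms while mitochondria, capillaries and glucose uptake develop. Pietrain is a heavily muscled, lean sire breed known for large, glycolytic fibres, and German Landrace is a dam line selected for fertility and growth. Which transcripts already differed between the breeds in late fetal muscle is the question the comparison addresses.

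The arrays were those of skeletal muscle. The creatine kinase of muscle, CKM, had a log2 intensity of 15.12 to 15.34 in Pi pools and 15.33 to 15.51 in DL pools, near the top of the scale. The nerve terminal gene SNAP25, the leptin gene LEP and the T cell gene CD3E lay at background in all 6 pools. Other markers of cells that are not muscle fibres were well above it. The means in Pi and DL were 14.28 and 14.12 for DCN of connective tissue, and 11.21 and 11.53 for PECAM1 of endothelium. For FABP4 of fat cells and capillaries they were 11.20 and 11.26, and for CD74 of leukocytes 9.76 and 9.74. Pool c of DL stood apart from its own group: over all probe sets of an array, which are not independent of each other, it correlated at 0.972 with both other DL pools, against 0.984 between DL a and b and 0.980 to 0.984 among the Pi pools. With the Pi pools it correlated at 0.973 to 0.976, slightly more than with its own group. Its actin control read higher at the 3' end than at the 5' end, a sign of RNA degradation, by a gap of 2.99 log2 units, against 1.68 to 2.20 in Pi pools and 1.42 and 1.41 in DL a and b. For GAPDH the same gap averaged 1.03 ± 0.25 in Pi and 0.56 ± 0.52 in DL (SD, n = 3 pools each), with 0.28 and 0.25 in DL a and b and 1.16 in DL c. An exact two-sided permutation test of that difference gave p = 0.3, where 3 pools against 3 cannot go below 0.1. The part of RNA quality in the results below was not tested beyond the values given with it.

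Of 23999 probe sets, 653 (2.72%) differed between the breeds at an adjusted p under 0.05 in limma, 323 (1.35%) higher and 330 (1.38%) lower in Pi. These are called below; a log2 difference is always Pi minus DL, and the value after ± is its standard error unless marked SD. The called differences were sizeable, with a median of 1.03 among the higher and -1.0 among the lower probe sets, and 175 and 166 of them exceeded 2-fold. The 3 Pi pools all lay on 1 side of the 3 DL pools for 315 of the 323 and 322 of the 330, against 19.3% of all probe sets. The calls were made from these same pools, so that order is no separate evidence for them. Among the 6765 genes with a symbol, each read from its brightest probe set, 245 (3.62%) were called, 91 higher and 154 lower in Pi. Each count of called list members below is to be read beside that 3.62%. The median difference over all those genes was -0.02. At an unadjusted p under 0.05 limma gave 3450 probe sets (14.4%).

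The count rests on a spread shared by all 24 arrays: a fit of the 6 arrays alone called 16 probe sets. It also moved with single pools, with 1257 calls without DL c, 248 without Pi b, 293 without DL a and 399 without DL b. With the GAPDH gap as a covariate 280 were called, 185 of them among the 653 and in the same direction.

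**Figure D1:**
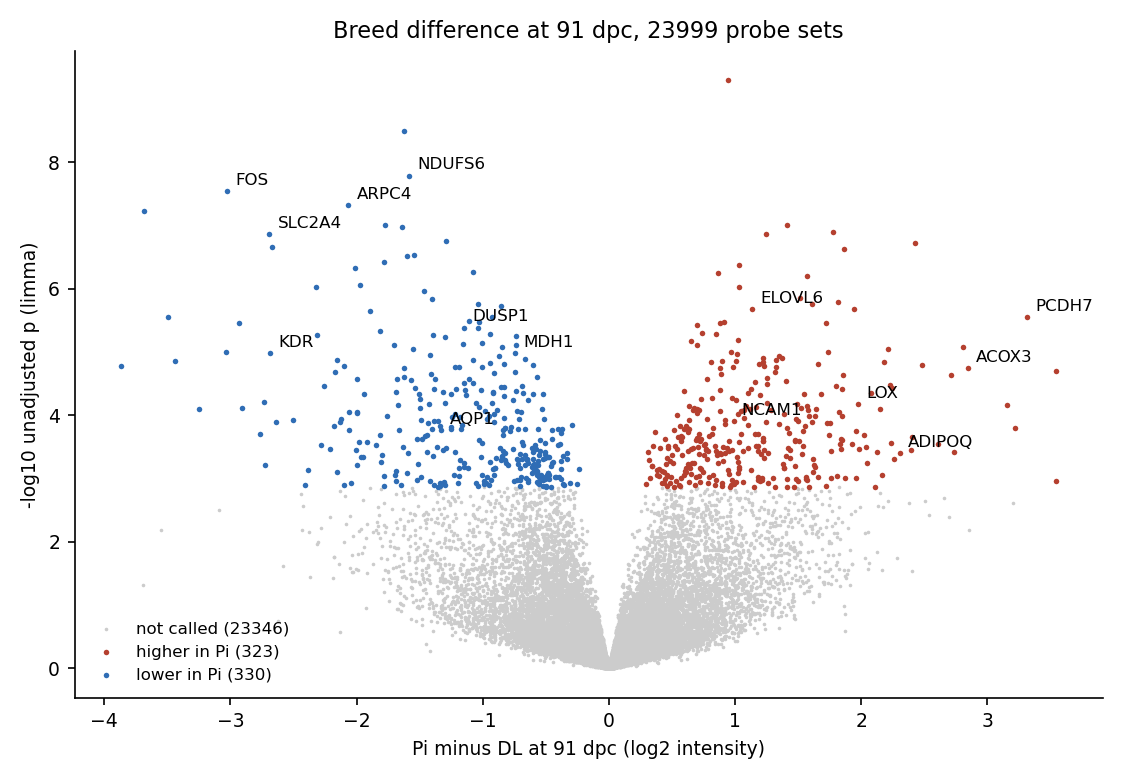
Breed difference at 91 dpc for 23999 probe sets, Pi minus DL in log2 intensity, against -log10 of limma's unadjusted p. Probe sets called higher in Pi are red (323), those called lower are blue (330), and the others are grey; PCDH7 at 3.32 and FOS at -3.02 are among the largest named differences.

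The changes that held best were spread over several kinds of genes. Of 84 called genes named here or in the gene lists, 22 remained called when any 1 of the 6 pools was left out. Among those 22, Pi was higher for PCDH7, ACOX3, SMPDL3A, RRM2B, LACC1, AKAP11, ELOVL6 and LOC100522115. It was lower for FOS, SLC2A4, KDR, GANAB, RNF25, ENPEP, ARPC4, WRAP53, NDUFS6, PSMD4, DUSP1, GOT1, MDH1 and LOC100522130.

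PCDH7, a protocadherin of cell-cell adhesion, had the largest rise among genes with a symbol. It read 8.09, 8.12 and 7.26 in Pi pools a, b and c, against 4.0, 4.52 and 5.0 in the DL pools. Every Pi pool lay more than 2 log2 units above every DL pool, a difference of 3.32 ± 0.49 (adjusted p = 0.0017). Another probe set of PCDH7, at a mean of 5.28 in Pi and 4.87 in DL, was not called. ACOX3, a peroxisomal oxidase of branched-chain fatty acids, read 7.35, 7.69 and 7.45 in Pi pools, against 3.51, 5.03 and 5.41 in DL pools. The Pi pools were alike and the DL pools spread widely below them (2.85 ± 0.49, adjusted p = 0.00406). Smaller rises were those of SMPDL3A, a phosphodiesterase of the acid sphingomyelinase family (2.08 ± 0.39), RRM2B, a p53-induced subunit of ribonucleotide reductase (1.85 ± 0.34), and AKAP11, an anchor of protein kinase A (1.58 ± 0.32).

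GANAB, the catalytic subunit of glucosidase II in the endoplasmic reticulum, read 7.52, 6.74 and 7.34 in Pi pools, against 9.61, 9.83 and 10.18 in DL pools. No Pi pool came within 2 log2 units of a DL pool, and the difference was -2.67 ± 0.32 (adjusted p = 0.000345). ARPC4, a subunit of the actin-branching Arp2/3 complex, had 6.29, 5.87 and 6.65 in Pi pools and 8.08, 8.56 and 8.37 in DL pools. Its groups were far apart (-2.07 ± 0.23, adjusted p = 0.00023), but a second probe set of ARPC4 had the same mean in both breeds, 7.31, so the gene's direction depends on the probe set. POLR2E, a subunit shared by the nuclear RNA polymerases, was nearly identical in the 3 Pi pools, 8.26, 8.27 and 8.31, and read 10.59, 10.30 and 10.13 in the DL pools. It was called in the fit of the 6 arrays alone (adjusted p = 0.046) and in the fit of all arrays (-2.06 ± 0.41, adjusted p = 0.0101), and just missed the threshold without DL a (adjusted p = 0.0517). ENPEP, the aminopeptidase that trims angiotensin II, read 3.18, 4.99 and 3.8 in Pi pools, against 6.16, 6.17 and 6.15 in DL pools, with the DL pools all but equal (-2.17 ± 0.37, adjusted p = 0.00456).

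Further large changes were called but lost the call without some pool. They were rises of PRKAB2, a regulatory subunit of AMP-activated kinase (1.83 ± 0.40), FGD4, an exchange factor for CDC42 (1.82 ± 0.36), and P2RY12, an ADP receptor of platelets and microglia (1.57 ± 0.40). SHROOM3, an actin-binding protein of cell shape (1.52 ± 0.30), SHTN1, a protein of axon growth (1.56 ± 0.32), and CYP2B22, a cytochrome P450 (1.76 ± 0.40), also rose. Falls of this kind were those of MAPK9, the kinase JNK2 (-2.50 ± 0.51), PNPLA6, a lysophospholipase (-2.41 ± 0.63), PFKFB4, a regulator of glycolysis (-2.04 ± 0.53), CCDC71 (-2.00 ± 0.48) and KCNE1, an accessory subunit of potassium channels (-1.79 ± 0.41). Every one of these 11 was lost without Pi b (adjusted p up to 0.244).

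Of the slow-fibre genes of the contractile apparatus 4 were called, all lower in Pi, and of the fast-fibre genes 0. All 10 measured slow sarcomere and slow-fibre genes had a negative difference, with a median of -0.36, and the 4 calls made 40% of them, against 3.62% of all genes with a symbol. For 8 of the 10 every Pi pool lay below every DL pool, against 8.42% of all probe sets. Of the 10 fast sarcomere and fast-fibre genes 0 were called in limma and 1 had an unadjusted p under 0.05, with a median of 0.01, 5 above and 5 below 0. In the bulk pools, fewer slow fibres and less slow-isoform RNA per fibre cannot be told apart.

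MYL2, the slow regulatory myosin light chain, read 14.72, 14.85 and 15.07 in Pi pools, against 15.30, 15.40 and 15.30 in DL pools. The groups did not overlap (-0.45 ± 0.10, adjusted p = 0.0182). TNNT1, slow troponin T, read 13.25, 13.42 and 13.64 in Pi pools and 13.74, 13.92 and 13.80 in DL pools (-0.39 ± 0.09, adjusted p = 0.0202). TNNI1, slow troponin I (-0.33 ± 0.08), and ATP2A2, the calcium pump of slow fibres (-0.29 ± 0.06, and -0.67 ± 0.15 in a second called probe set), were the other called members. MYH7, the slow myosin heavy chain, had 14.28, 14.49 and 14.54 in Pi pools and 14.64, 14.73 and 14.92 in DL pools, a like difference that missed the threshold (-0.33 ± 0.09, adjusted p = 0.0627). MYL3, TPM3, CASQ2, MYBPC1 and TNNC1 did not pass either (-0.83 to -0.17). On the fast side TNNI2, fast troponin I, differed by 0.19 ± 0.08 (adjusted p = 0.212, and -0.23 under hybridisation-control scaling), TNNT3, fast troponin T, by -0.09 ± 0.10 and MYH2, the IIa myosin heavy chain, by -0.03 ± 0.30. All 4 slow calls were lost without Pi a and without Pi b (adjusted p 0.0539 to 0.113), and 0 of them were called in the 6 arrays alone. The list's median stayed negative in every fit, between -0.42 and -0.27 apart from scaling to the hybridisation controls (-0.78), which shifted all probe sets together, to a median of -0.42.

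Genes of immature fibres leaned the other way. All 5 measured embryonic and perinatal genes were higher in Pi, with a median of 0.76. Every Pi pool lay above every DL pool in all 5, against 10.9% of all probe sets, and 1 of the 5 was called. It was NCAM1, an adhesion molecule that myoblasts and immature or denervated fibres carry, which read 8.18, 8.63 and 8.19 in Pi pools, against 7.48, 6.77 and 7.79 in DL pools. The Pi pools lay above all DL pools, which were more scattered (0.99 ± 0.20, adjusted p = 0.0125), and the call was lost without Pi b (adjusted p = 0.0791). Its 3 other probe sets differed by 0.09, 0.12 and 0.48 and were not called. NCAM1 was also the 1 called of 5 genes of the neuromuscular junction, whose median was 0.06. The muscle acetylcholine receptor subunit CHRNA1 (0.81 ± 0.46), the embryonic light chain MYL4 (0.76 ± 0.47) and the cardiac and embryonic troponin TNNT2 (0.66 ± 0.29) had like values that did not pass (adjusted p = 0.49, 0.547 and 0.307).

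Of the 27 genes of sarcomere and Z-disc structure 1 was called (3.70%, near the 3.62% of all genes with a symbol). It was PDLIM3, a Z-disc adaptor of alpha-actinin (-0.72 ± 0.17, adjusted p = 0.0274), in which DL c at 11.18 lay within the Pi range of 10.66 to 11.20. Of 11 genes of calcium handling only ATP2A2 was called (9.09%). PLN, its inhibitor phospholamban, differed by -1.03 ± 0.42 (adjusted p = 0.242), and RYR1, the calcium release channel, by -0.11 ± 0.16. Of the 16 myogenic factors and regulators of muscle mass 0 were called in limma, and 3 had an unadjusted p under 0.05. The myogenic factors MYOD1 (-0.22 ± 0.28), MYF5 (-0.62 ± 0.41) and MYF6 (-0.38 ± 0.25), and myostatin, MSTN (-0.21 ± 0.50), did not pass (adjusted p 0.58 to 1). Another probe set of MSTN, with means of 6.91 in Pi and 8.15 in DL, differed by -1.25 ± 0.55 and was not called (adjusted p = 0.299). Among 9 genes of creatine kinase, myoglobin and phosphate transfer CKMT2, the mitochondrial creatine kinase of muscle, was lower (-0.72 ± 0.17, adjusted p = 0.0269). PDLIM3 and CKMT2 both lost the call without Pi a, Pi b, DL a or DL b (adjusted p up to 0.161).

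**Figure D2:**
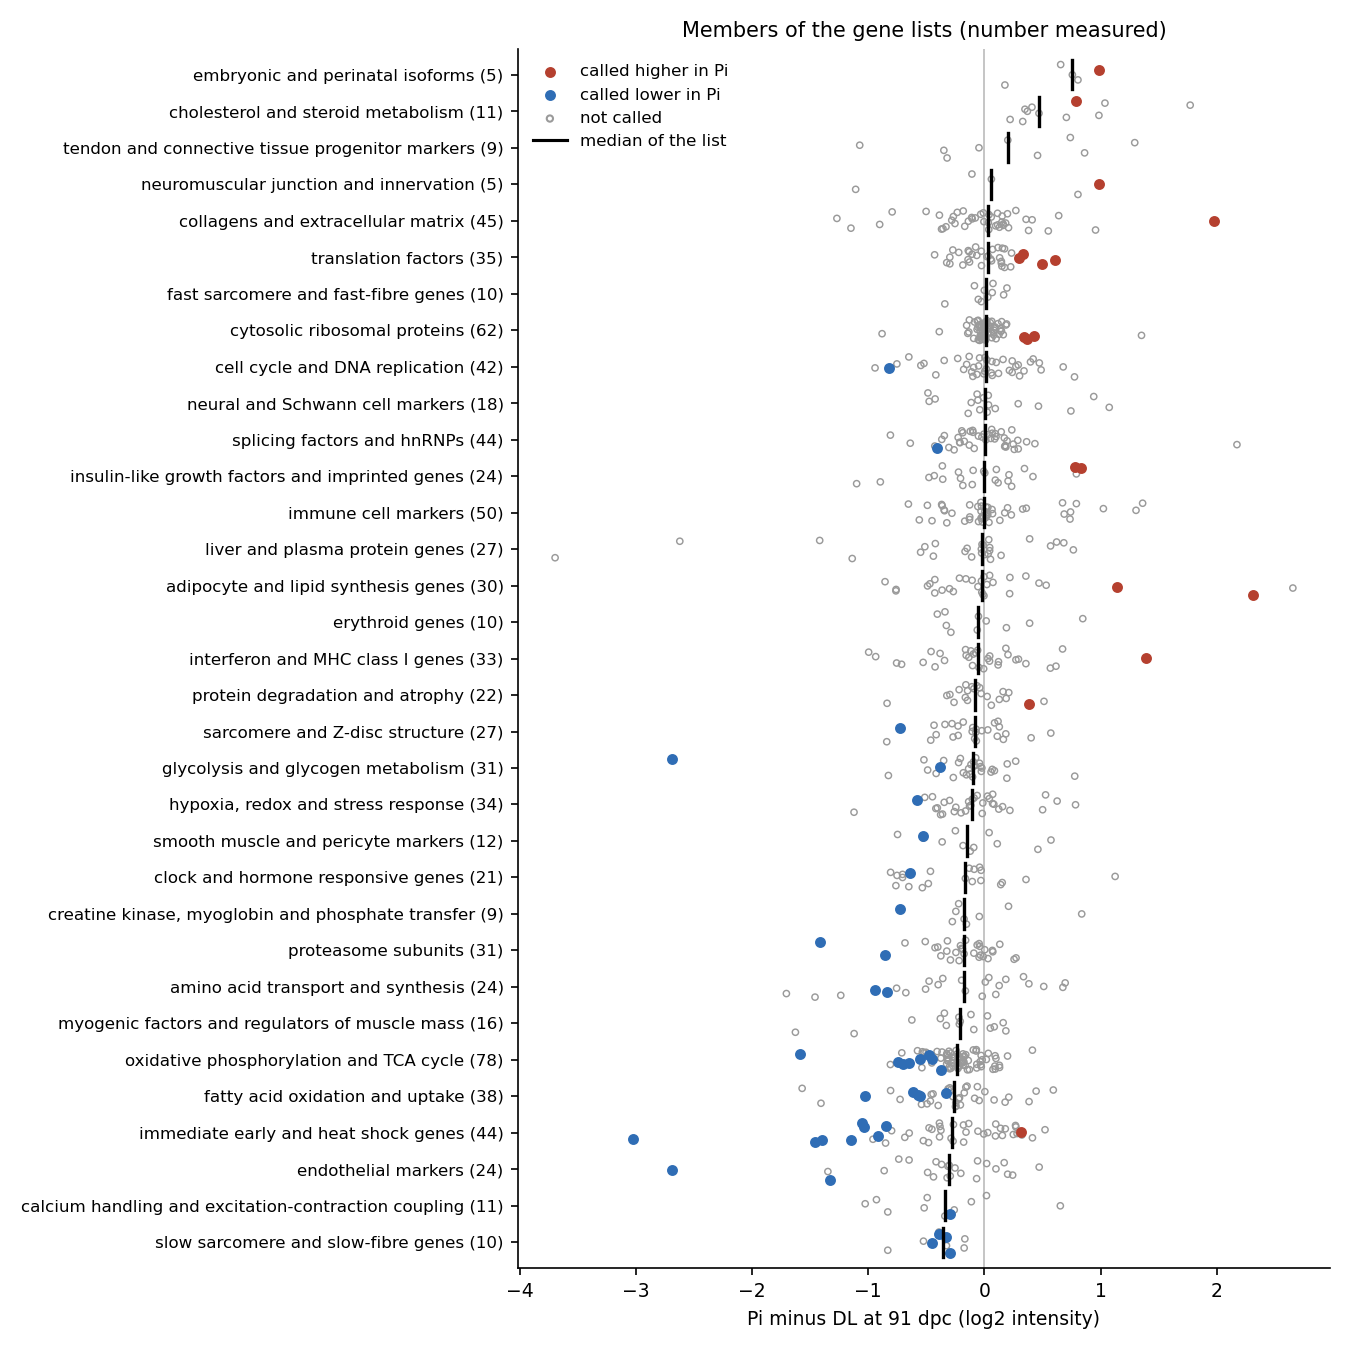
Pi minus DL at 91 dpc, in log2 intensity, for each measured member of 33 gene lists, ordered by the median of the list (black bar), with the number measured in parentheses. Filled points are called members, red higher and blue lower in Pi; slow-fibre genes have a median of -0.36 at the bottom, and embryonic and perinatal genes one of 0.76 at the top.

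Mitochondrial genes that were called were lower in Pi, while most members did not pass. Of the 78 measured for oxidative phosphorylation or the TCA cycle 67 had a negative difference, with a median of -0.23, and 8 were called, all lower (10.3%, against 3.62% of all genes with a symbol). For 28 of the 78 every Pi pool lay below every DL pool, and for 2 every Pi pool lay above, against 8.42% and 10.9% of all probe sets. Of 38 that take up or oxidise fatty acids 31 were negative (median -0.26) and 5 were called, all lower (13.2%).

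NDUFS6, a subunit of respiratory complex I, changed most. It read 8.01, 8.43 and 8.42 in Pi pools, against 9.84, 10.02 and 9.74 in DL pools. Each group was tight, the gap was over 1 log2 unit, and the difference was -1.58 ± 0.16 (adjusted p = 0.00013, 0.000815 at most with any 1 pool left out). A second probe set of NDUFS6, near background, was level. Other called members of complex I were NDUFA9 (-0.56 ± 0.13), NDUFS1 (-0.48 ± 0.12) and NDUFAB1, which is also the mitochondrial acyl carrier protein (-0.45 ± 0.10). ATP5A1, the alpha subunit of ATP synthase, was at 13.81, 13.67 and 13.87 in Pi pools and at 14.18, 14.22 and 14.07 in DL pools. The groups did not overlap, and the difference was modest in size (-0.37 ± 0.08, adjusted p = 0.0145).

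MDH1 read 11.09, 11.01 and 11.42 in Pi pools, against 12.05, 12.06 and 11.62 in DL pools, with DL c nearest to the Pi pools (-0.74 ± 0.12, adjusted p = 0.00343). It encodes the cytosolic malate dehydrogenase, which belongs to the malate-aspartate shuttle and not to the TCA cycle itself. Its partner in that shuttle, the cytosolic aspartate aminotransferase GOT1, read 9.35, 9.30 and 9.36 in Pi pools and 10.45, 10.41 and 9.98 in DL pools. The Pi pools were almost identical and lay below all DL pools (-0.94 ± 0.15, adjusted p = 0.00235). Of the TCA cycle proper, fumarase FH (-0.70 ± 0.16) and isocitrate dehydrogenase IDH2 (-0.65 ± 0.15) were called. For FH, DL c at 11.22 lay within the Pi range of 10.79 to 11.29.

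In fatty acid oxidation the called genes were HADH, the medium- and short-chain hydroxyacyl-CoA dehydrogenase, HADHB, a subunit of the trifunctional protein, ECI2, an enoyl-CoA isomerase, and ETFA and ETFB, the electron transfer flavoprotein. HADH read 12.15, 12.08 and 11.94 in Pi pools, against 12.49, 12.39 and 12.30 in DL pools, with no overlap (-0.33 ± 0.08, adjusted p = 0.0239). HADHB fell by 0.61 on the log2 scale, and a second probe set of it was also called, at -0.97 ± 0.20. ECI2 was at -1.03 ± 0.20 in its brightest probe set, while a dimmer one, with means of 4.88 in Pi and 2.92 in DL, was called higher at 1.96 ± 0.41, so its direction depends on the probe set. FABP3, the fatty acid binding protein of oxidative muscle, differed by -0.44 ± 0.20 (adjusted p = 0.32), and PPARGC1A, the coactivator of mitochondrial biogenesis, by -0.31 ± 0.49.

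Of the 13 called genes on those lists, NDUFS6 and MDH1 passed with any 1 pool left out. Without Pi b, 2 of the 8 and 1 of the 5 were called, and without DL a, 3 and 0 (adjusted p of lost calls up to 0.217). With the GAPDH gap as a covariate 2 (NDUFS6 and MDH1) and 0 were called, and the medians were -0.14 and -0.25. The part of RNA quality in these differences was not tested further.

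The insulin-responsive glucose transporter SLC2A4, also named GLUT4, was at background in Pi. It read 1.94, 2.01 and 2.03 in Pi pools, all at or below the background ceiling, and 5.67, 4.09 and 4.29 in DL pools. It was therefore at least 5.01-fold lower in Pi (adjusted p = 0.000274), and DL a was the highest pool. Its 2 other probe sets lay at or near background in both breeds. In the list of 31 genes of glycolysis and glycogen metabolism the only other called gene was PGK1, phosphoglycerate kinase (-0.38 ± 0.09, adjusted p = 0.0343), which was lost without Pi b, DL a or DL b (adjusted p up to 0.192). Lactate dehydrogenase LDHA differed by -0.03 ± 0.07, and PRKAG3, the AMP-activated kinase subunit known for its meat-quality alleles, by -0.04 ± 0.58. Of 24 genes of amino acid transport and synthesis GOT1 and BCKDHB, a subunit of the branched-chain ketoacid dehydrogenase (-0.84 ± 0.18, adjusted p = 0.0167), were lower in Pi. The call for BCKDHB was lost without Pi a or DL a (adjusted p up to 0.0785).

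**Figure D3:**
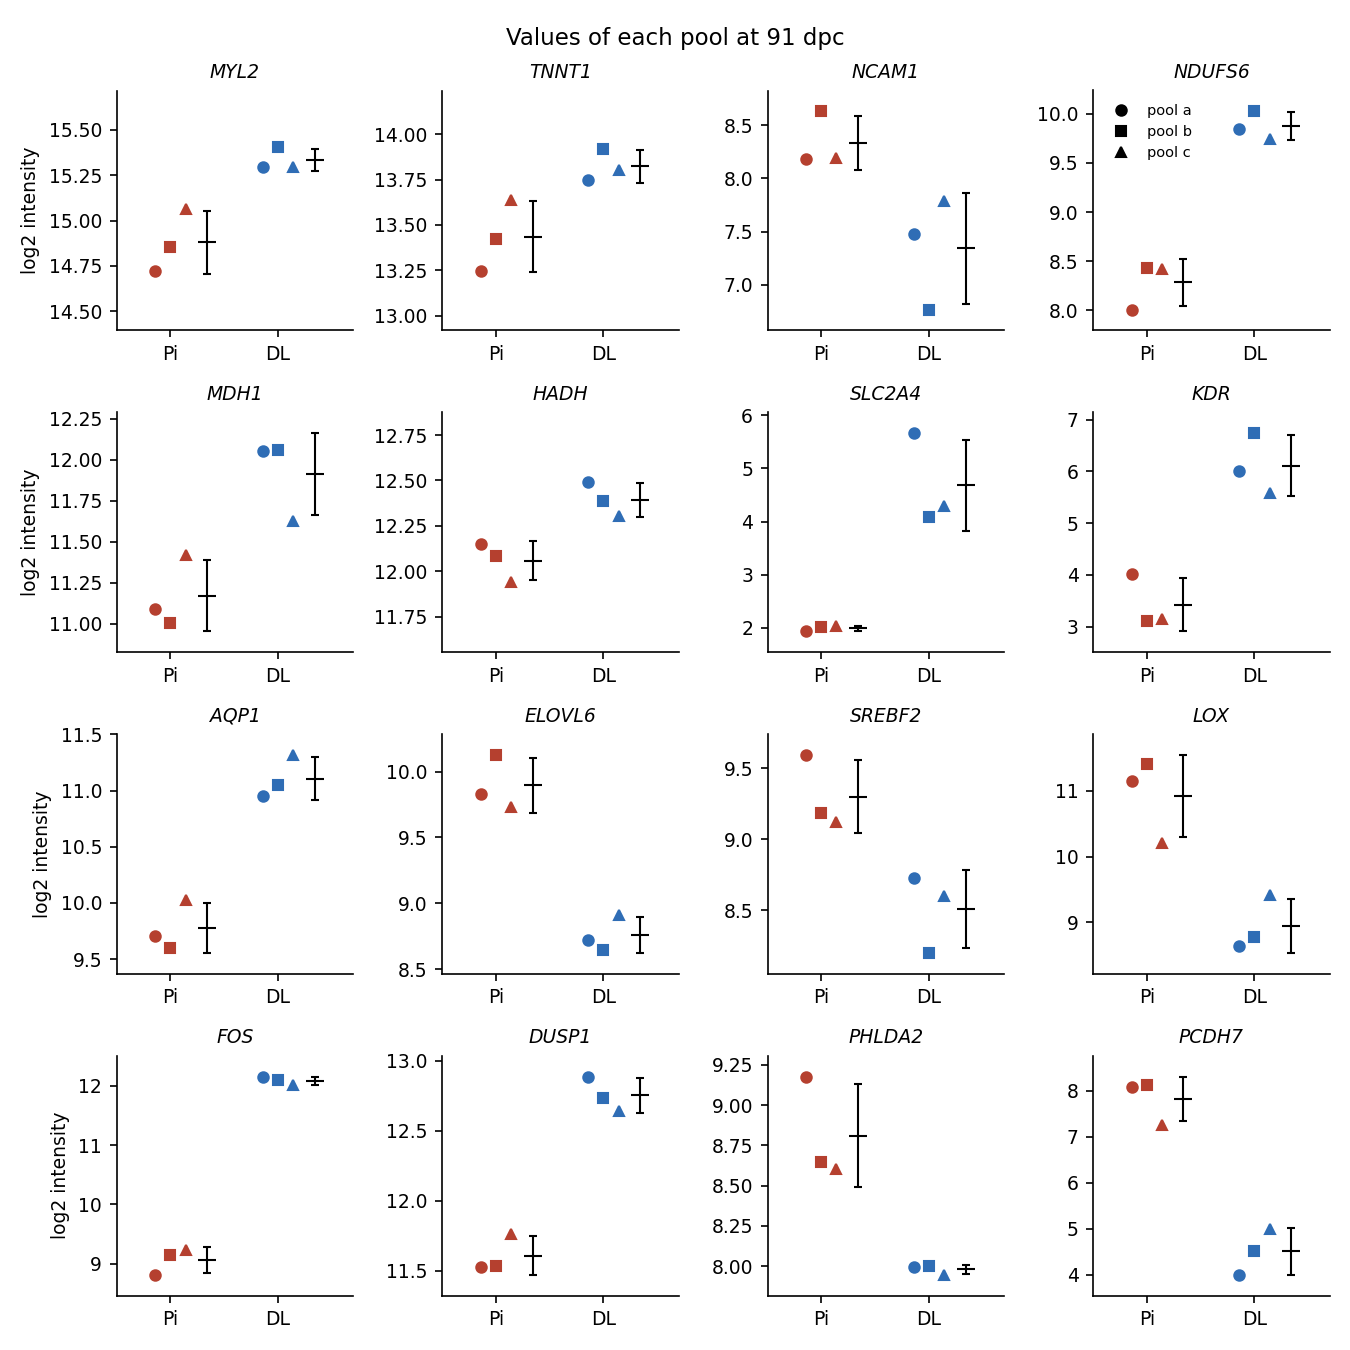
Log2 intensity of each pool at 91 dpc for 16 genes, with Pi on the left and DL on the right of each panel; symbols mark pools a, b and c, and the bars give the mean and SD of 3 pools. SLC2A4 lies at background in the 3 Pi pools and between 4.09 and 5.67 in the DL pools, and for each gene shown no Pi pool lies within the range of the DL pools.

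Read from their brightest probe sets, the called members among lipid synthesis and sterol genes were all higher in Pi. ELOVL6, an elongase of long-chain fatty acids, read 9.83, 10.13 and 9.73 in Pi pools, against 8.72, 8.64 and 8.91 in DL pools. The pools of each breed lay close together, and the difference was 1.14 ± 0.16 (adjusted p = 0.00138, 0.0102 at most with any 1 pool left out). Other, dimmer probe sets of ELOVL6 differed by -0.30, 0.13 and 1.53 and were not called. ADIPOQ, adiponectin, a hormone of fat cells, read 7.15, 5.75 and 5.54 in Pi pools and 5.0, 4.35 and 2.17 in DL pools. All Pi pools were higher, but both groups were scattered and DL c lay at background (2.31 ± 0.53, adjusted p = 0.0239). Without Pi a or Pi b the ADIPOQ call was lost (adjusted p up to 0.106). These were the 2 called of 30 adipocyte and lipid synthesis genes (6.67%, against 3.62% of all genes with a symbol). The list's median was -0.02, and its linear intensities summed to 14740 to 16600 in Pi pools and 16430 to 19680 in DL pools. LEP and 3 other members were at background in all 6 pools. DGAT2, of triglyceride synthesis, had 7.59, 6.59 and 4.97 in Pi pools and 3.83, 3.75 and 3.61 in DL pools, with the Pi pools widely scattered above the DL pools, and missed the threshold (2.66 ± 0.73, adjusted p = 0.0627). FABP4, a fatty acid binding protein of fat cells and capillaries, differed by -0.06 ± 0.20. CEBPD, also on the clock and hormone-responsive list, was not called in its brightest probe set (-0.76 ± 0.33). A dimmer one, with means of 3.41 in Pi and 5.47 in DL, was called lower (-2.06 ± 0.43, adjusted p = 0.0146).

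All 11 measured genes of cholesterol and steroid metabolism were higher in Pi, with a median of 0.47. Of these 1 was called (9.09%, against 3.62% of all genes with a symbol). For 6 of the 11 every Pi pool lay above every DL pool, and for 0 every Pi pool lay below, against 10.9% and 8.42% of all probe sets. The called gene was SREBF2, the transcription factor that controls cholesterol synthesis, with 9.59, 9.19 and 9.12 in Pi pools, against 8.73, 8.2 and 8.6 in DL pools. The groups did not overlap (0.79 ± 0.17, adjusted p = 0.0169), and the call was lost without Pi a or DL b (adjusted p up to 0.0863). The enzymes SC5D (1.77 ± 0.52, adjusted p = 0.0812), SQLE (1.04 ± 0.86) and HSD17B7 (0.99 ± 0.46) did not pass. Under scaling to the hybridisation controls the list's median was 0.05.

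Of 45 genes of collagens and extracellular matrix 1 was called (2.22%, near the 3.62% of all genes with a symbol). LOX, lysyl oxidase, which cross-links collagen and elastin, read 11.14, 11.41 and 10.21 in Pi pools, against 8.64, 8.78 and 9.41 in DL pools. The c pools of the breeds came nearest to each other, and the difference was 1.98 ± 0.38 (adjusted p = 0.00899), lost without Pi b (adjusted p = 0.0595). LOX was the called gene of that list, which ranged from -1.27 to 1.98 with a median of 0.03 and whose sums overlapped between the breeds. POSTN, periostin, a matricellular protein, was not called in its brightest probe set (0.64 ± 0.47, adjusted p = 0.649) and was called higher in a dimmer one, with means of 8.96 in Pi and 7.61 in DL (1.35 ± 0.22, adjusted p = 0.00357). Other than in their brightest probe sets, LAMC1, a laminin chain (-1.17 ± 0.24), and VCAN, versican (0.64 ± 0.16), were called too. Of 9 tendon and connective tissue progenitor markers 0 were called in limma, and 3 had an unadjusted p under 0.05 (median 0.20).

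Growth and imprinted genes were mostly level. PHLDA2, an imprinted gene that restrains placental growth, read 9.18, 8.65 and 8.61 in Pi pools, against 7.99, 8.0 and 7.95 in DL pools. The DL pools were almost equal and every Pi pool was higher (0.83 ± 0.17, adjusted p = 0.0145). PLAGL1, an imprinted zinc-finger factor of fetal growth, was at 13.11, 12.94 and 12.96 in Pi pools and 12.06, 12.31 and 12.30 in DL pools (0.78 ± 0.18, adjusted p = 0.0269). These were the 2 called of 24, with 12 members above and 12 below 0. The call for PHLDA2 was lost without Pi a or DL a (adjusted p up to 0.0673) and that for PLAGL1 without any pool but DL c (adjusted p up to 0.129). The growth factors IGF2 and IGF1 differed by 0.09 ± 0.15 and -0.90 ± 0.46, and the growth hormone receptor GHR by -1.10 ± 0.41 (adjusted p = 0.962, 0.401 and 0.194). Other probe sets of IGF1 differed by 0.86 ± 0.71 and -0.35 ± 0.61 and were not called, so its direction depends on the probe set.

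Read from their brightest probe sets, the called ribosomal proteins and translation factors were higher in Pi, and the called proteasome subunits were lower. Of 62 cytosolic ribosomal proteins 3 rose (4.84%, near the 3.62% of all genes with a symbol), RPL21 (0.34 ± 0.08), RPL13 (0.37 ± 0.08) and RPL22L1 (0.43 ± 0.11), against a list median of 0.01. Of 35 translation factors 4 rose (11.4%, against 3.62% of all genes with a symbol). They were the initiation factor subunits EIF3A (0.61 ± 0.15) and EIF3E (0.29 ± 0.08), and EIF1AX (0.49 ± 0.12) and EIF4B (0.33 ± 0.08). Second probe sets of EIF1AX and EIF4B were at -0.10 and -0.26 and not called. EIF5A, the hypusinated elongation factor, was not called in its brightest probe set (-0.27 ± 0.19), but a dimmer one, singled out after its values were seen, was lower in Pi. It averaged 8.97 in Pi and 10.59 in DL (-1.62 ± 0.15, adjusted p = 3.87e-05) and was also called in the 6 arrays alone (adjusted p = 0.0379). Scaled to the hybridisation controls, RPL21, RPL13, EIF3E and EIF4B turned to the other sign and were not called, and without Pi b or DL a, 0 of the 7 that rose were called (adjusted p up to 0.237). Of 31 proteasome subunits 2 fell (6.45%, against 3.62% of all genes with a symbol). Of the 31, 24 were negative and 7 positive, with a median of -0.17. For 9 every Pi pool lay below every DL pool, and for 0 every Pi pool lay above, against 8.42% and 10.9% of all probe sets. PSMD4, the ubiquitin receptor of the proteasome, read 7.35, 7.60 and 8.05 in Pi pools, against 9.09, 9.13 and 9.02 in DL pools, where it was nearly constant (-1.41 ± 0.23, adjusted p = 0.00355). PSMB3, a core subunit, fell by 0.86 on the log2 scale (adjusted p = 0.0217), and was lost without Pi a, Pi b or DL a (adjusted p up to 0.0929).

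Of 22 genes of protein degradation and atrophy 1 was called, CAPN2, m-calpain, which was higher (0.39 ± 0.10, adjusted p = 0.0398) and turned to the other sign under hybridisation-control scaling. Its inhibitor calpastatin, CAST, differed by 0.51 ± 0.14 (adjusted p = 0.0685), and the muscle calpain CAPN3 by -0.84 ± 0.27 (adjusted p = 0.113). Of 42 cell cycle genes 1 fell, CKS2, a subunit of cyclin-dependent kinases (-0.82 ± 0.19, adjusted p = 0.0239). Of 44 splicing factors and hnRNPs 1 fell, HNRNPAB (-0.41 ± 0.09, adjusted p = 0.0207). Without Pi b or DL a, CAPN2, CKS2 and HNRNPAB were not called (adjusted p up to 0.2). Each of these lists had a median between -0.08 and 0.01. The calls made 4.55%, 2.38% and 2.27% of the lists, near the 3.62% of all genes with a symbol.

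Several immediate early genes were called lower in Pi. Genes of this kind are transcribed within minutes of growth factors, contraction or stress and encode short-lived regulators. Of 44 immediate early and heat shock genes, listed together, 8 were called lower and 1 higher (20.5%, against 3.62% of all genes with a symbol), with a median of -0.28. For 17 every Pi pool lay below every DL pool, and for 4 every Pi pool lay above, against 8.42% and 10.9% of all probe sets.

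FOS, a subunit of the AP-1 transcription factor, read 8.81, 9.15 and 9.23 in Pi pools, against 12.14, 12.11 and 12.01 in DL pools. Both groups were tight and nearly 3 log2 units apart, an 8.13-fold lower level in Pi (-3.02 ± 0.32, adjusted p = 0.000172). FOS was called in the 6 arrays alone (adjusted p = 0.0326), with any 1 pool left out and with the GAPDH covariate. DUSP1, a phosphatase that switches off MAP kinases, read 11.52, 11.53 and 11.77 in Pi pools and 12.89, 12.73 and 12.64 in DL pools, again with no overlap (-1.15 ± 0.17, adjusted p = 0.00204). JUN, the AP-1 partner of FOS (-0.85 ± 0.20), BTG2, an antiproliferative gene (-1.46 ± 0.31), ZFP36, which destabilises mRNAs (-1.05 ± 0.27), IER2 (-1.04 ± 0.27), the stress gene GADD45G (-0.91 ± 0.22) and the chaperone DNAJB1 (-1.40 ± 0.29) were the other falls.

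The 1 rise on that list was HSPB1, a small heat shock protein of muscle (0.31 ± 0.07, adjusted p = 0.0233), whose sign turned under hybridisation-control scaling. Without Pi b 3 of the 8 falls were called, and without DL a 2, FOS and DUSP1 (adjusted p of lost calls up to 0.179). With the GAPDH covariate those 2 were called. Of 34 genes of hypoxia, redox and stress response PRDX3, a mitochondrial peroxiredoxin, was lower (-0.58 ± 0.13, adjusted p = 0.0206). Of 21 clock and hormone-responsive genes NR3C1, the glucocorticoid receptor, was lower (-0.64 ± 0.16, adjusted p = 0.0459). PRDX3 and NR3C1 made 2.94% and 4.76% of their lists, near the 3.62% of all genes with a symbol. HSPB1 was lost without Pi c or DL b, PRDX3 without Pi b or DL b, and NR3C1 without Pi b, Pi c, DL a or DL b (adjusted p up to 0.19).

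Among markers of blood vessels 3 were called, all lower in Pi. Of 24 endothelial markers 18 were negative and 6 positive, with a median of -0.31, and 2 were called (8.33%, against 3.62% of all genes with a symbol). For 9 of the 24 every Pi pool lay below every DL pool, against 8.42% of all probe sets. KDR, the main receptor for vascular endothelial growth factor, read 4.03, 3.11 and 3.14 in Pi pools, against 6.02, 6.74 and 5.59 in DL pools. The groups were at least 1.5 log2 units apart (-2.69 ± 0.44, adjusted p = 0.00343), and another probe set of KDR lay at background in all pools. AQP1, the water channel of capillaries and red cells, read 9.70, 9.60 and 10.03 in Pi pools and 10.95, 11.05 and 11.32 in DL pools (-1.33 ± 0.28, adjusted p = 0.0146), lost without Pi a or Pi b (adjusted p up to 0.077). The general endothelial markers PECAM1 (-0.31 ± 0.10), CDH5 (-0.44 ± 0.18), TEK (-0.42 ± 0.29), VWF (-0.74 ± 0.29) and ENG (0.20 ± 0.23) did not pass. The 6 markers with a positive difference, ENG, NOS3, EGFL7, SELP, LYVE1 and SELE, lay between 0.02 and 0.47. Summed on the linear scale, the 24 markers came to 20980 to 24170 intensity units in Pi pools and 25740 to 29680 in DL pools, which do not overlap. Of the 24, 1 was at background in all 6 pools. PDGFRB, the platelet-derived growth factor receptor of pericytes, was the 1 called of 12 smooth muscle and pericyte markers (-0.52 ± 0.12, adjusted p = 0.0272), lost without Pi a, Pi b, DL a or DL c (adjusted p up to 0.145). The part of vessel content in other differences was not tested.

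Other cell types had few or no called markers in limma. Of 50 immune cell markers, 18 neural, 10 erythroid and 27 liver and plasma protein genes 0 were called, with medians between -0.06 and 0.01, and 5, 2, 2 and 1 had an unadjusted p under 0.05. In all 6 pools 12, 3, 2 and 7 of them were at background. The linear sums overlapped between breeds for immune, neural and liver genes, and were 4953 to 6697 in Pi pools and 6995 to 7306 in DL pools for erythroid genes. The erythroid list includes TMOD1, which is also on the sarcomere and Z-disc list. Its means were 11.99 in Pi and 12.33 in DL, far above the globin gene HBB at 9.09 and 8.70. The erythroid sums therefore do not stand for red cells alone, and HBB itself differed by 0.39 ± 0.28. AHSG, fetuin, a fetal liver protein, was at 2.12, 2.34 and 2.42 in Pi pools, against 4.75, 4.54 and 8.68 in DL pools (adjusted p = 0.341). Pool c of DL was by far the highest, and it also carried SERPINA1, the plasma antitrypsin, at 8.66 and AFP, alpha-fetoprotein, at 5.79, where all Pi pools were below 2.7. AGT, angiotensinogen, another liver product, was called at least 2.82-fold lower in Pi (adjusted p = 0.0497), and lost without Pi a, b or c, DL a or DL c (adjusted p up to 0.172). Of 33 interferon and MHC class I genes 1 was called higher (3.03%, near the 3.62% of all genes with a symbol). It was OAS1, an interferon-induced sensor of double-stranded RNA (1.39 ± 0.28, adjusted p = 0.0106), lost without Pi b or DL a (adjusted p up to 0.0596).

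The breed difference was then set beside those of the other stages. Of the 653 calls at 91 dpc, 460 were not called at 35 dpc, 63 dpc or in adults. Missing the threshold at another stage does not show a difference from that stage. At 63 dpc, 522 of the 653 (79.9%) had the same sign, called or not, against 57.6% of all probe sets. The share was 53.9% at 35 dpc, against 52.9%, and 63.9% in adults, against 52.5%. At 63 dpc 329 probe sets (1.37%) differed between breeds, and 82 were called at both fetal stages in the same direction, 12.6% of the 91 dpc list and 24.9% of the 63 dpc list, while 2 were called in opposite directions. With adults, where 1519 (6.33%) were called, 79 were shared in the same direction and 17 in the opposite one. With 35 dpc, where 966 (4.03%) were called, 42 and 27 were shared. Of the calls at 91 dpc, 8 recurred in the same direction at all 4 stages.

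FOS was lower in Pi at 63 dpc too, by the same amount (-2.92, adjusted p = 0.00057), and was level at 35 dpc (0.43, adjusted p = 0.73) and in adults (0.04). PCDH7 was also higher at 63 dpc (2.68, adjusted p = 0.0095), and LOX was higher in adults (1.72, adjusted p = 0.011). ELOVL6 was called higher at 63 dpc (0.67), at 91 dpc and in adults (1.38). Of the 84 called genes, 6 were called in the opposite direction at 35 dpc. NDUFS6, PSMD4 and POLR2E were higher in Pi there, by 0.73, 1.85 and 2.06, and were also called at 63 dpc, at -1.09, -1.08 and -2.45. HADH was higher in Pi at 35 dpc (0.32), and SREBF2 (-1.26) and HSPB1 (-0.61) were lower, and these 3 were not called at 63 dpc. The difference between 35 and 91 dpc was not tested itself.

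**Figure D4:**
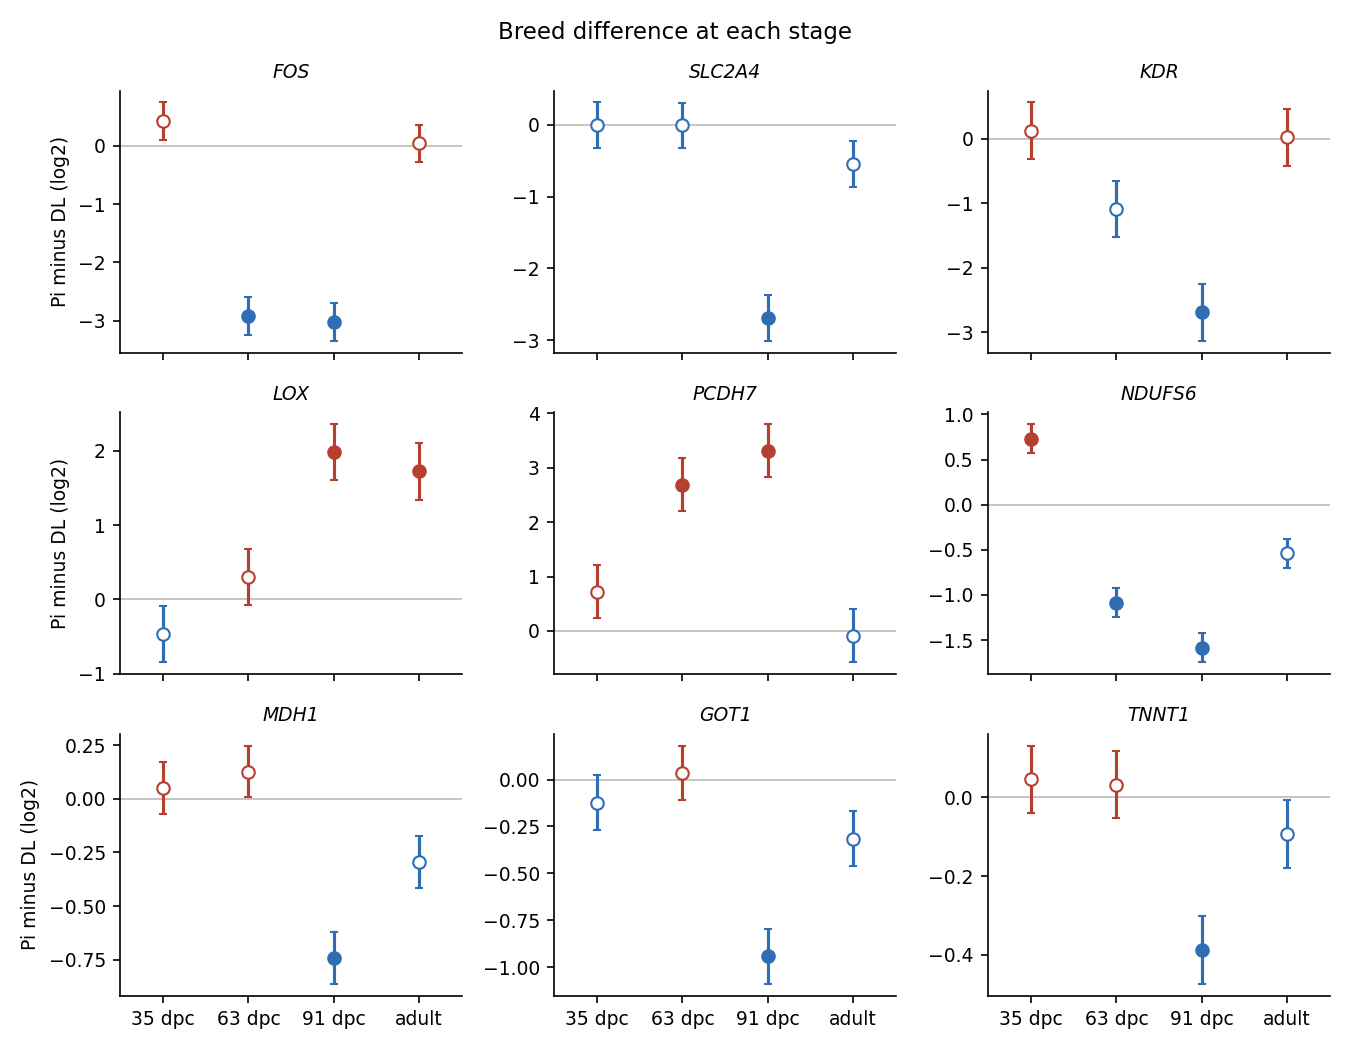
Breed difference, Pi minus DL in log2 intensity, at 35, 63 and 91 dpc and in adults for 9 genes; points are estimates of the limma fit, bars are standard errors, and filled points are called. FOS is called at 63 and 91 dpc, and SLC2A4, KDR, MDH1, GOT1 and TNNT1 are called at 91 dpc and at no other stage shown.

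Whether a breed difference at 91 dpc differed from that at 63 dpc was tested as an interaction, which called 22 probe sets (0.0917%), 8 (0.0333%) more positive and 14 (0.0583%) more negative at 91 dpc. Of the 22, 13 were also among the 653 calls at 91 dpc. The interaction count was 115 without DL c, 74 without Pi c and 12 without Pi b. SLC2A4 was among them (-2.68 ± 0.45, adjusted p = 0.0322): at 63 dpc both breeds were at background, with means of 1.96 in Pi and 1.97 in DL, and at 91 dpc only DL had left it. FBP2, the fructose bisphosphatase of muscle, had means of 3.18 in Pi and 6.14 in DL at 63 dpc and of 7.88 and 8.71 at 91 dpc, so the gap between the breeds was smaller at the later stage (2.13 ± 0.38, adjusted p = 0.0398). EIF3E was called in opposite directions at the 2 stages, at 0.29 at 91 dpc and at -0.50 at 63 dpc (adjusted p of the interaction 0.0116). MDH1 (adjusted p = 0.0575) and GOT1 (adjusted p = 0.0754) narrowly missed, so a difference from 63 dpc is not shown for them.

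Against the breed difference of adults, 638 probe sets (2.66%) were called, 353 (1.47%) more positive and 285 (1.19%) more negative at 91 dpc, and 177 of these were also among the 653. The count was 353 without DL a, 366 without Pi b, 424 without Pi a and 174 with array weights. Adult pools were noisier: the residual SD of an array was 0.65 to 0.85 in adults and 0.41 to 0.57 at 91 dpc. The main fit gave all stages the same spread, which applies to the 1519 adult calls too. FOS (-3.07 ± 0.45), DUSP1 (-1.59 ± 0.25), BTG2 (-2.25 ± 0.44), ZFP36 (-1.85 ± 0.38), IER2 (-1.99 ± 0.38) and JUN (-1.17 ± 0.28) all had a more negative difference at 91 dpc than in adults. So did SLC2A4 (-2.15 ± 0.45), KDR (-2.71 ± 0.62), NDUFS6 (-1.04 ± 0.23) and GANAB (-3.03 ± 0.46). IGF2, whose paternal allele is known to affect muscle mass in pigs after birth, was not called at 91 dpc (0.09) and was higher in adult Pi (1.14), and the interaction passed (-1.05 ± 0.21, adjusted p = 0.0124). Another bright probe set of IGF2, with means of 14.18 in Pi and 13.25 in DL at 91 dpc, differed by 0.93 ± 0.29 there (adjusted p = 0.1). CAST moved the other way, 0.51 at 91 dpc and -0.76 in adults (1.27 ± 0.20, adjusted p = 0.00305).

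The calls at 91 dpc were set beside the change of the same probe sets between 63 dpc and adults, averaged over both breeds, which uses none of the 91 dpc arrays. Of the 330 probe sets lower in Pi, 64.5% were higher in adults than at 63 dpc and 16.7% were lower. Of the 323 higher in Pi, 25.4% were higher in adults and 52.0% were lower, against 32.1% and 27.0% of all 23999 probe sets. All 8 called in the list of respiration and the TCA cycle, all 5 of fatty acid oxidation and 3 of the 4 slow-fibre genes were among those that were higher in adults. LOX, NCAM1, PHLDA2, PLAGL1 and PCDH7 were lower in adults than at 63 dpc. Both contrasts share the spread of a probe set over the arrays, so a quiet probe set is called more readily in each, and no test of this overlap was made.

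**Figure D5:**
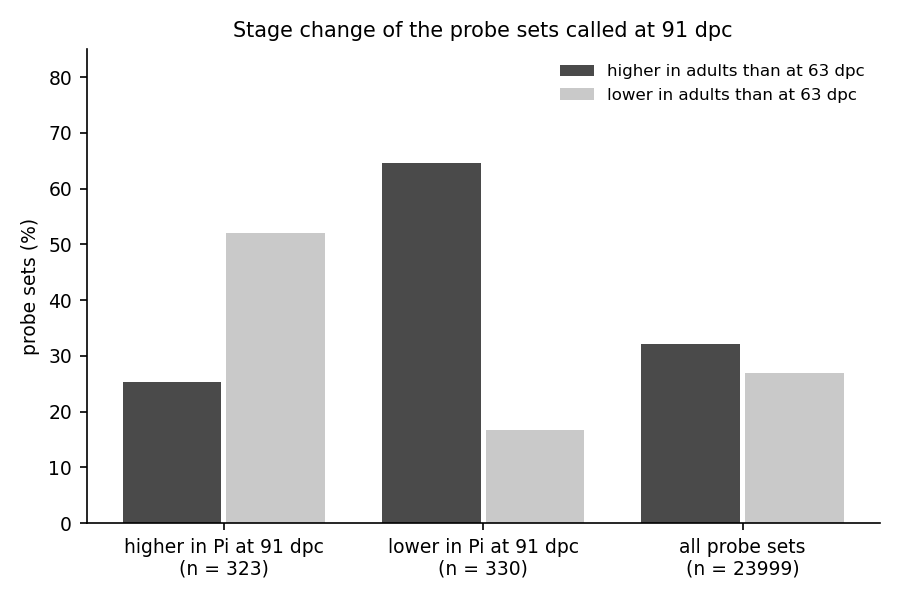
Percentage of probe sets that were higher (dark) or lower (light) in adults than at 63 dpc, averaged over both breeds, among those called higher in Pi at 91 dpc (n = 323), those called lower in Pi (n = 330) and all tested (n = 23999). Among probe sets lower in Pi 64.5% were higher in adults, against 25.4% among those higher in Pi and 32.1% of all.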

How the data were processed

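The authors deposited log2 intensities, 1 for each probe set on each array, with GCOS 1.1.1 named per the submitters' processing notes. The sources used here do not say how probes were summarised, nor the log base, for which the span of 1.60 to 16.10 left base 2. All 24 sorted columns were identical, so the deposited log2 values had been quantile-normalised before deposit, and only changes relative to other probe sets can be seen. From them, 124 control probe sets were left out and 1 model with 8 group means was fitted to the 24 arrays with limma 3.58.1 in R 4.3.3 (16 residual degrees of freedom, 1.31 prior). Tests were two-sided, with Benjamini-Hochberg adjustment over 23999 probe sets and a threshold of 0.05.

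The array annotation gave 1 symbol for 10069 probe sets, several for 198 and none for 13732; of the first, 9961 matched a RefSeq gene, and no symbol changed. A gene stood for its probe set with the highest mean. A pool was at background when at or below the highest of 23 unspiked control probe sets of its array (2.31 to 2.69), and a fold against a group entirely at background is a lower bound. The number of arrays limits the precision.

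The comparison, the 33 gene lists and the rules for named genes were chosen with earlier results of these data known. Named were the 15 largest rises and falls with pools apart, called list members or the 4 most extreme, the 5 largest interactions in each direction and a fixed panel, of which ACTA1 had no probe set. Pool letters were not used as pairs in the main fit, and same-letter deviations of the breeds correlated at 0.06, -0.07 and -0.05. Alternatives were other array sets, weights, scalings, filters, a trend, covariates, a pool block and omission of each pool. Sequences were not used here. Plots were made by matplotlib 3.10.9 under Python 3.11.15.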

Additional observations from a re-analysis of the deposited data

Results flagged for a closer look

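The breed difference at 91 dpc differed from that at 63 dpc, by limma's interaction test, for 22 probe sets, and from that in adults for 638. Each value below is the difference between the breed differences, in log2 units, and was taken from the 5 largest in each direction among probe sets with 1 symbol.

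Against 63 dpc, the difference was more negative at 91 dpc for SLC2A4, the GLUT4 glucose transporter (-2.68), AHCY, which hydrolyses S-adenosylhomocysteine (-1.36), WDR37 (-1.19) and LOC100522130 (-0.91). It was more positive for FBP2, the muscle fructose bisphosphatase (2.13), and EIF3E, an initiation factor subunit (0.80). AHCY was lower in Pi at 91 dpc (-0.82) and not called at 63 dpc (0.54), while WDR37 was called higher in Pi at 63 dpc (0.73) and not called at 91 dpc (-0.46).

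Against adults, it was more positive for ST3GAL3, a sialyltransferase (5.31), EIF1AY, a Y-linked gene in several mammals (4.42), FAM234A (3.96), ALCAM, an adhesion molecule (3.67), and CASQ2, calsequestrin of slow and cardiac muscle (3.56). It was more negative for PRKCZ, an atypical protein kinase C (-4.25), HERC3, a ubiquitin ligase (-3.87), CREB1, a cyclic AMP-responsive factor (-3.82), CCL19, a lymphoid chemokine (-3.64), and PPARG, the master factor of fat cells (-3.50). None of these 10 was called at 91 dpc itself. CASQ2, for example, differed by -0.83 at 91 dpc and by -4.39 in adults. Groups of 3 pools are too small for a test of single outlying pools.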

How the results depend on the processing

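Against 653 called probe sets, other fits called 16 (6 arrays alone, 12 of them among the 653), 3 (6 arrays alone without DL c), 1060 (18 fetal arrays), 1285 (array weights), 6306 (hybridisation-control scaling, 177 higher and 6129 lower, with a median of all probe sets of -0.42), 280 (GAPDH covariate), and 248 to 1257 with 1 pool left out. The actin covariate gave 923, added like the second of these after seeing the data. Centring on ribosomal proteins called 676, 236 higher and 440 lower (34.9% higher, against 49.5%). The pool block called 320 and kept 35 of the 84 named calls; for the interactions it called 0 and 294. The labels do not say whether a letter marks pools handled together, and the cause of these lower counts was not tested.

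The interaction with 63 dpc (22) had 40 with fetal arrays, 113 with weights, 44 with the GAPDH covariate, and 12 to 115 with a pool left out. That with adults (638) had 174 with weights, 324 with the GAPDH covariate and 353 to 771 with a pool left out. Genes read as the mean of their probe sets gave 279 calls, against 245.

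Under hybridisation-control scaling 6 of the 84 called genes changed sign: CAPN2 (-0.0362), HSPB1 (-0.110), EIF3E (-0.127), EIF4B (-0.0922), RPL21 (-0.0798) and RPL13 (-0.0534), none called there, as did 5 of 64 genes that were not called. Of the 84 named calls, 29 were kept without Pi b, 34 without DL a, 43 without DL b, 44 without Pi a, 67 without Pi c and 75 without DL c, and 25 with the GAPDH covariate. The cause of these shifts was not tested.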
